A study of Mus musculus with 847 samples.

Results

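The 9 genes described here are 8 cathepsins, Ctsa, Ctsb, Ctsc, Ctsd, Ctsh, Ctsl, Ctss and Ctsz, together with Cd68, chosen by name from the 21076 genes of the count table. The choice set 3 cathepsins held to be microglial, Ctss, Ctsz and Ctsh, against 5 held to be more broadly expressed. It was made with earlier results of these data known. Every member was present in the table and passed the filter on low counts in all 15 regions, which gave 135 member-region pairs. The samples were untreated brain tissue of C57BL/6JN mice, an inbred laboratory strain, with no transgene or treatment named in the labels. RNA sequencing covered 15 dissected regions of 59 mice, 25 females and 34 males, with 51 to 59 libraries per region. Groups at 3, 12, 15 and 18 months held 5 females and 5 males, the group at 21 months 5 females and 6 males, and the groups at 26 and 28 months 5 and 3 males with no females. Each mouse gave at most 1 library per region, so mice are the replicates within a region. Ages 12 and 26 months carry mouse numbers 1 to 15 and 28 months 57 to 59, apart from the other ages, and whether the numbers mark separate collections is not stated in the sources used here.

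Cathepsins are proteases that work mainly in the acidic interior of lysosomes, where they digest proteins delivered by endocytosis and autophagy. Most are made as inactive proenzymes and carried to the lysosome by mannose 6-phosphate receptors. Microglia, the resident macrophages of the brain, hold many lysosomes, and Cd68, a heavily glycosylated protein of the macrophage lysosomal membrane, is widely used to mark phagocytic microglia. Ctss stays active at neutral pH and trims the invariant chain during class II antigen presentation.

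Promoter sequences were read for 7 of the 9 members from RefSeq on GRCm38.p6. None was matched for Ctsb and Ctsh. Each runs from 250 bases before to 50 bases after the annotated start site, 5′ to 3′ on the gene's strand. Capitals mark the palindromic E-box CACGTG, the core of the element bound by lysosomal regulators such as TFEB, and the letters GGAAGT or their reverse complement ACTTCC, a form of the element bound by the myeloid factor PU.1. The promoters of Ctsd, Ctss and Cd68 are shown because they hold one kind of letters each. They belong to a cathepsin held to be broadly expressed, a cathepsin held to be microglial and the macrophage marker.
Ctsd chr7:142387778-142388077 minus strand: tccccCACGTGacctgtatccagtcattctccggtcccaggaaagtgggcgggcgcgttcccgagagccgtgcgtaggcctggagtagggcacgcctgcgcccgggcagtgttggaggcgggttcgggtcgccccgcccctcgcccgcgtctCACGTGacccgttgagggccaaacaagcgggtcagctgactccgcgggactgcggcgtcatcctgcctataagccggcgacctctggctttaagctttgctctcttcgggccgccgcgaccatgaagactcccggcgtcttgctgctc
Ctss chr3:95526536-95526835 plus strand: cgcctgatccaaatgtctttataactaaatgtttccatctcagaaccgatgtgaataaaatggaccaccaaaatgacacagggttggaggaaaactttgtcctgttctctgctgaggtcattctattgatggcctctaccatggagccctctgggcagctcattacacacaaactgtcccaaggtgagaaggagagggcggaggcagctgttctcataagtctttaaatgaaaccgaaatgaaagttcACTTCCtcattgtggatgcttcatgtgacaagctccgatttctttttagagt
Cd68 chr11:69666121-69666420 minus strand: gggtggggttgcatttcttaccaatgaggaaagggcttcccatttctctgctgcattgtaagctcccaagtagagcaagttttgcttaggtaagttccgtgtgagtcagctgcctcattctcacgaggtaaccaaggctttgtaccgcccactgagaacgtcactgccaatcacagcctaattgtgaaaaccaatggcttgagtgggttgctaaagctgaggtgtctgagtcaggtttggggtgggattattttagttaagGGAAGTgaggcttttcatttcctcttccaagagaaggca
Counted from the start site to the first letter of the match, the E-boxes of Ctsd stood at -245 and -98, the PU.1 letters of Ctss at -2 and those of Cd68 at 11. Ctsl held an E-box at -236, and Ctsc held PU.1 letters at -151. Of the 2 promoters listed for Ctsa, the second held E-boxes at -12 and 5 and PU.1 letters at -218 and 27, and the first held neither, as did the promoter of Ctsz. On either strand, CACGTG was present in 7.15% and GGAAGT in 23.8% of all 32851 promoters of this length, and the longer GAGGAAGT, found in Ctss and Ctsc, in 3.20%. A match is a string of letters in this window and not a measured binding site.

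The median library held 6716032 reads. The shallowest held 481444 and the deepest 26756735, and 10 were below 1e+06. Levels are counts per 1e+06 reads of the library (CPM). All members had at least 1 read in every library. The smallest count was 1 read, for Cd68, whose median count was 69, while Ctsb had a median of 5774. The 13 homeostatic microglia genes of a fixed list were present in every region, with summed 3-month means between 148.5 CPM in cerebellum and 506.7 CPM in caudate putamen. Libraries labelled choroid plexus held epithelial markers of that tissue, Ttr among them, at a sum of 1921 to 6931 CPM at 3 months. They also held 5647 to 7141 CPM of 8 neuronal genes, within the range of the brain regions, so they are not choroid plexus alone. Corpus callosum libraries carried between 6.59 and 15490 CPM of the same epithelial markers at 3 months. The library labelled entorhinal cortex of mouse 52, a 21-month female, was nearest to medulla (Pearson r = 0.790 over 11958 genes, against -0.445 with entorhinal cortex), and the slopes of Cd68 and Ctss in that region are given with and without it.

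At 3 months the highest regional mean was between 1.49 and 2.34 times the lowest for 7 members, and over 4 times the lowest for Ctsc and Cd68. Ctsb, a cysteine protease of the papain family, had the highest counts, from 672.2 ± 23.7 CPM in olfactory bulb to 1059 ± 51.3 CPM in pons (SD, n = 10 and 9). Ctsd, the main lysosomal aspartic protease, whose loss causes a neuronal lipofuscinosis, lay between 344.3 ± 18.0 CPM in cerebellum and 582.1 ± 76.0 CPM in choroid plexus (SD, n = 10 each). Per kilobase of annotated exons, Ctsd was the higher of the pair, with a median over regions of 165.5 against 134.8 CPM per kilobase for Ctsb. On that scale Ctss followed at 41.4, Ctsz at 35.4, Ctsa at 28.0, Ctsl at 19.0, Cd68 at 6.41, Ctsh at 5.45 and Ctsc at 2.72. Each length joins all annotated exons of a gene, whether or not 1 transcript holds them all. It was 6489 bases for Ctsl and 4715 for Ctsa, against 1358 for Ctss and 1441 for Ctsz. The order between genes therefore depends on the annotation.

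Ctss, the invariant chain protease, ranged from 34.7 ± 6.37 CPM in cerebellum to 73.8 ± 7.90 CPM in pons at 3 months (SD, n = 10 and 9). Of its 14 steps between neighbouring regions in that order, 1 exceeded the larger SD, the step from entorhinal cortex at 43.5 ± 4.72 CPM (SD, n = 9) down to cerebellum. Ctsz, a carboxypeptidase, had a separate upper group: corpus callosum at 82.8 ± 13.2, caudate putamen at 81.6 ± 6.96 and subventricular zone at 80.7 ± 10.4 CPM (SD, n = 10, 9 and 10), with pons next at 61.2 ± 4.59 CPM (SD, n = 9). Ctsh, an aminopeptidase, ran from 17.9 ± 2.44 CPM in cerebellum to 37.6 ± 11.1 CPM in subventricular zone (SD, n = 10 each), with no step between neighbours beyond the larger SD. In subventricular zone, Ctsh correlated with choroid plexus markers at 0.69 within age and sex groups. The 3-month library with the most markers there had 57.6 CPM of Ctsh, and the one with the least 22.1 CPM. The part of these markers in the order was not tested.

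Cd68 had the widest regional range, a 4.96-fold difference between caudate putamen at 17.0 ± 3.64 CPM (SD, n = 9) and cerebellum at 3.43 ± 0.833 CPM (SD, n = 10). Its regional 3-month means correlated with the summed homeostatic microglia list at Pearson r = 0.859 over 15 regions, against 0.617 for Ctss, 0.5425 for Ctsc, 0.456 for Ctsh, 0.314 for Ctsz, 0.0701 for Ctsd, -0.18 for Ctsa, -0.457 for Ctsb and -0.505 for Ctsl. These are descriptions over regions that share mice. Ctsc, the dipeptidyl peptidase that activates granule serine proteases, ranged 4.10-fold, from 9.19 ± 1.92 CPM in cerebellum to 37.7 ± 15.5 CPM in subventricular zone (SD, n = 10 each). Epithelial markers of choroid plexus moved with that level. The 3-month subventricular zone library with the least, 56.7 CPM, had 19.0 CPM of Ctsc, and the one with the most, 9272 CPM, had 68.7 CPM. Within age and sex groups the correlation was 0.85 over 55 libraries, and its part in the regional order was not tested. Ctsa, which stabilises the sialidase Neu1, and Ctsl, an endopeptidase, ranged 1.49-fold and 1.72-fold.

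**Figure D1:**
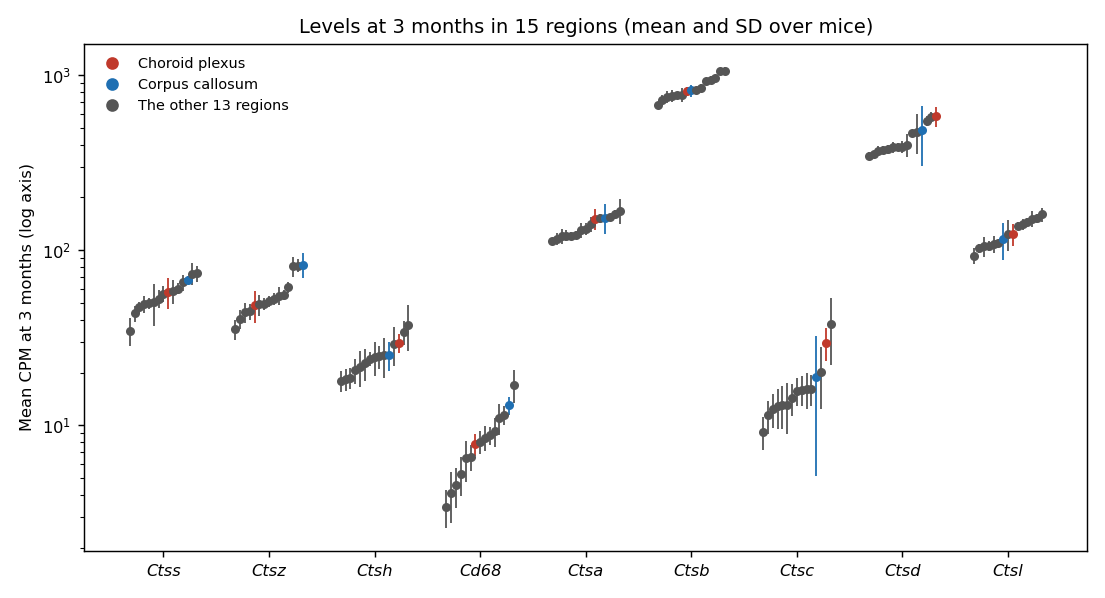
Mean level at 3 months of each member (CPM, log axis), with 1 point per region in rising order and bars for the SD over 9 or 10 mice. The points of Cd68 and Ctsc span the widest range, and those of Ctsb lie highest, between 672.2 and 1059 CPM.

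Age was tested within each region as a slope in log2 per month beside sex, with the quasi-likelihood test of edgeR and Benjamini-Hochberg adjustment over all genes of the region. Members rose in 98 of 135 pairs and fell in 0, and 129 slopes were above 0. Over all genes and regions, 6.39% of tests were called rising and 5.07% falling. The median slope over member pairs was 0.0151 log2 per month, beside -0.0001125 over all genes tested. Because tissue was sequenced in bulk, more cells of a type and more RNA per cell cannot be told apart in any of these values.

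Cd68, Ctss and Ctsz each rose in 14 of 15 regions. The exception for all of them was entorhinal cortex, where none of the 9 members passed and where 0.186% of genes were called rising. Ctsd and Ctsh rose in 12 regions, Ctsa and Ctsb in 9, Ctsl in 8 and Ctsc in 6. All 9 members rose in cerebellum, choroid plexus, hypothalamus, medulla and pons, where 10.7%, 11.5%, 4.13%, 6.55% and 4.62% of all genes were called rising. In caudate putamen 8 members rose (all genes 7.68%), in anterior hippocampus 7 (6.89%), in posterior hippocampus 7 (4.33%) and in thalamus 7 (2.88%). In corpus callosum 6 rose (9.53%), in subventricular zone 6 (4.85%), in motor cortex 5 (8.62%), in olfactory bulb 4 (7.79%) and in visual cortex 3 (5.8%).

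**Figure D2:**
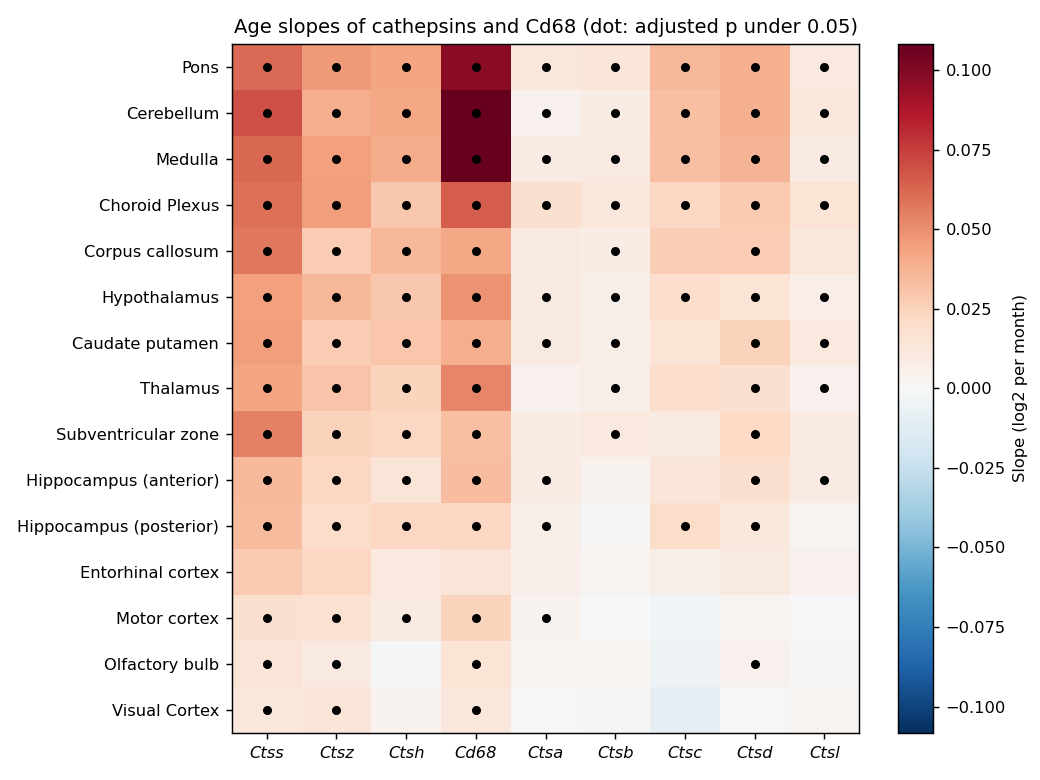
Age slopes of the 9 members (columns) in 15 regions (rows, ordered by their mean slope), in log2 per month, with a dot where the adjusted p was under 0.05. Cd68 in medulla, cerebellum and pons has the steepest slopes, from 0.097 to 0.108, and entorhinal cortex carries no dot.

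In medulla, Cd68 lay between 2.25 and 6.03 CPM at 3 months, with a median of 3.72, and between 11.55 and 32.9 CPM at 21 months, with a median of 17.3. The 3 males of 28 months had 16.4, 19.2 and 23.0 CPM. No library of either older age overlapped the 3-month libraries. The slope was 0.108 log2 per month (SE 0.00669, edgeR adjusted p = 4.78e-20, n = 58). In cerebellum, Cd68 lay between 2.48 and 4.74 CPM at 3 months, with a median of 3.44, and the 28-month males had 12.7, 17.0 and 19.7 CPM. That slope was also 0.108 (SE 0.00616, edgeR adjusted p = 5.02e-22, n = 58). Cerebellum was the region with the least Cd68 at 3 months, and at 28 months its mean of 16.45 ± 3.51 CPM (SD, n = 3) stood beside 16.3 ± 1.92 CPM in entorhinal cortex (SD, n = 3).

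In pons, Cd68 went from a 3-month median of 6.39 CPM, with a range of 4.17 to 9.62, to 22.4, 31.0 and 33.85 CPM in the 28-month males. The ratio of the 28-month to the 3-month mean was 4.798 in cerebellum, 4.78 in medulla, 4.497 in pons and 2.64 in choroid plexus. In the other regions it lay between 1.19 in visual cortex and 2.07 in caudate putamen. In 14 of 15 regions, visual cortex being the exception, every 28-month library exceeded every 3-month library for Cd68. The same held in 12 regions for Ctss and Ctsz, 7 for Ctsa, Ctsb and Ctsd, 6 for Ctsh and Ctsl and 0 for Ctsc. These counts set at most 3 male libraries of 28 months against 3-month libraries of both sexes. The share of all genes with such a separation was not computed, so the counts are descriptions. In entorhinal cortex, Cd68 ran from 8.91 to 13.2 CPM at 3 months and from 8.06 to 26.3 CPM at 21 months, so these ages overlapped, and the slope of 0.0138 did not pass (SE 0.00790, edgeR adjusted p = 0.586). Without the library of mouse 52 it was 0.01355 (SE 0.00814, edgeR adjusted p = 0.787).

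Ctss in cerebellum lay between 26.7 and 45.6 CPM at 3 months, with a median of 31.9, and the 28-month males had 84.8, 107.6 and 124.9 CPM. The slope, 0.0698 log2 per month, was the steepest of the 15 for this gene (SE 0.00559, edgeR adjusted p = 1.50e-15, n = 58). In corpus callosum the 3-month range was narrow, 62.7 to 73.5 CPM, and the 28-month males had 167.6, 171.2 and 236.3 CPM. The ages did not overlap there, with a slope of 0.0569 (SE 0.00353, edgeR adjusted p = 1.45e-19, n = 57). The flattest slopes of Ctss that passed were 0.0174 in motor cortex, 0.0140 in olfactory bulb and 0.0120 in visual cortex. In entorhinal cortex its slope of 0.0286 did not pass (edgeR adjusted p = 0.121), and without the library of mouse 52 it was 0.0253 (edgeR adjusted p = 0.274).

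**Figure D3:**
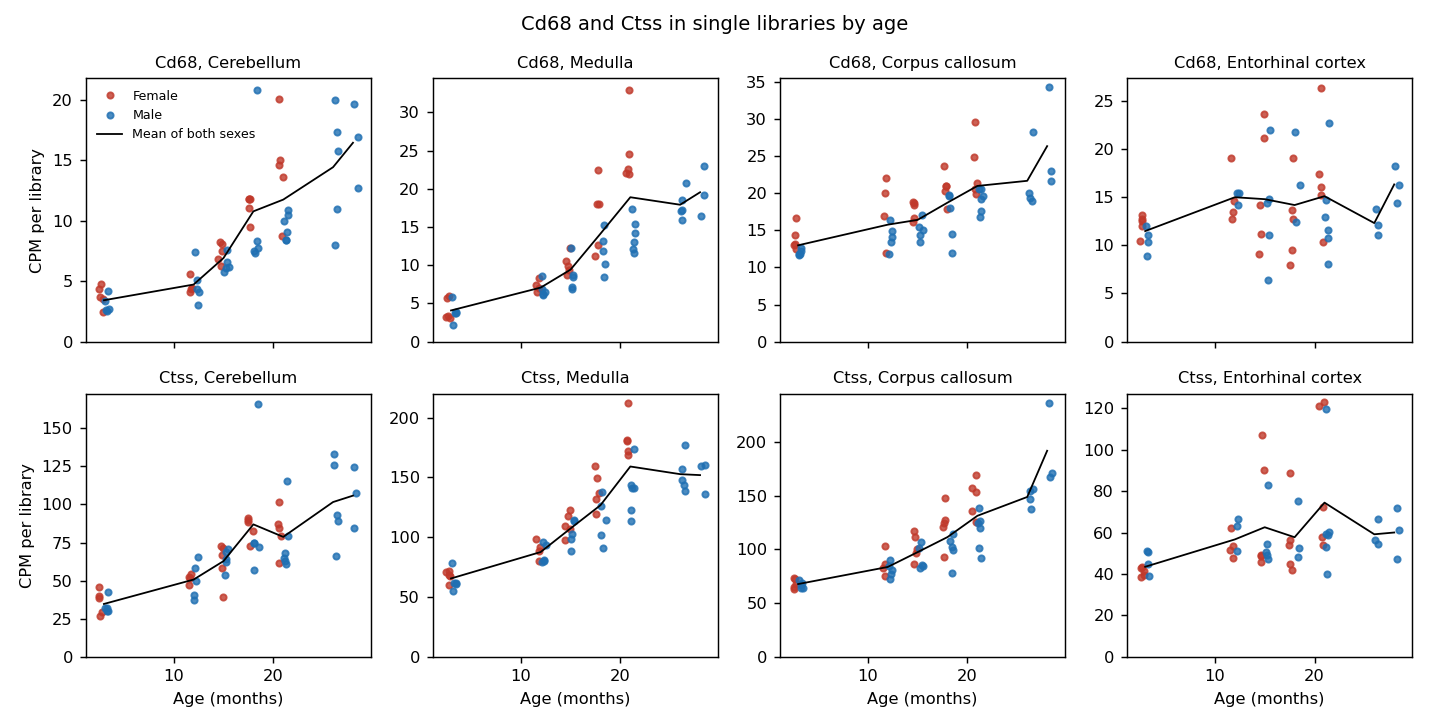
Level of Cd68 (top) and Ctss (bottom) in single libraries (CPM) by age in months in 4 regions, with females in red, males in blue and a line through the mean at each age. In medulla and cerebellum the 28-month libraries of Cd68 lie above all 3-month libraries, and in entorhinal cortex the 21-month libraries spread over the range of the younger ones.

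Ctsz rose by 0.0460 log2 per month in pons (SE 0.00317, edgeR adjusted p = 5.16e-17, n = 51), its steepest slope, where its 3-month libraries ran from 56.0 to 67.8 CPM and the 28-month males had 124.0, 127.1 and 141.5 CPM. Its flattest slope, 0.0096 in olfactory bulb, also passed (edgeR adjusted p = 0.001185). Ctsh had its steepest slope in pons as well, 0.0428 (SE 0.005495, edgeR adjusted p = 3.57e-08), with 20.9 to 45.0 CPM at 3 months and 56.1, 60.4 and 68.9 CPM in the 28-month males. In olfactory bulb the slope of Ctsh was -0.0011, and the 28-month mean was 33.6 ± 3.13 beside 33.9 ± 5.31 CPM at 3 months (SD, n = 3 and 10).

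Of the cathepsins held to be more broadly expressed, Ctsd had the steepest slope in a single region, in pons. There it ran from 502.9 to 599.8 CPM at 3 months, and the 28-month males had 968.9, 1069 and 1100 CPM, with no overlap. The slope was 0.0384 log2 per month (SE 0.00297, edgeR adjusted p = 3.16e-15). In visual cortex the slope of Ctsd was 0.000243 (edgeR adjusted p = 0.95). Ctsb in pons went from 1059 ± 51.3 to 1374 ± 51.6 CPM (SD, n = 9 and 3), a ratio of 1.30, and in motor cortex from 960.4 ± 45.6 to 967.5 ± 14.1 CPM (SD, n = 10 and 3). Ctsa and Ctsl had their steepest slopes in choroid plexus, 0.0176 (edgeR adjusted p = 4.36e-05) and 0.0152 (edgeR adjusted p = 0.0001465). Ctsc had 3 slopes below 0, in motor cortex, olfactory bulb and visual cortex, none of which passed, and its steepest was 0.0358 in pons (edgeR adjusted p = 4.48e-05).

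The mean slope of the 3 cathepsins held to be microglial exceeded that of the 5 others in each of the 15 regions. The difference ran from 0.0063 log2 per month in olfactory bulb to 0.0316 in cerebellum. Of the 45 pairs of Ctss, Ctsz and Ctsh, 40 rose, with a median slope of 0.0291, and of the 75 pairs of the others 44 rose, with a median of 0.0091. This is a description of groups chosen with earlier results of these data known, with no test of the difference. The order was not uniform within the groups: Ctsd rose in as many regions as Ctsh. The 3-month correlation with the homeostatic microglia list also cut across the groups, with Ctsc (0.5425) above Ctsh (0.456) and Ctsz (0.314). Mean slopes over regions were 0.0426 for Ctss, 0.0285 for Ctsz, 0.0236 for Ctsh and 0.0197 for Ctsd. Region accounted for between 44.7% of the variance of log2 CPM, for Ctsh, and 79.4%, for Ctsb. Age beside region accounted for 29.3% for Ctss, 23.1% for Cd68, 17.7% for Ctsz, 12.5% for Ctsh and 10.7% for Ctsd, and for 3.47% to 5.48% for the other 4.

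Both microglial marker lists moved in the same direction. The 13 homeostatic genes rose in 120 of 195 pairs and fell in 3, with a median slope of 0.0144. A list of activated microglia genes, none of them members, rose in 160 of 221 pairs and fell in 0, with a median slope of 0.0586. Rises were not limited to microglial lists, and 6.39% of tests over all genes were called rising. Granulocyte and monocyte genes rose in 21 of 79 pairs, astrocyte genes in 29 of 120 and blood genes in 16 of 75, with 2, 8 and 0 falling. Border macrophage genes rose in 10 of 102 pairs and fell in 5. Oligodendrocyte, endothelial, choroid plexus and neuronal genes rose in 13 of 120, 5 of 90, 9 of 101 and 4 of 120, with 5, 1, 3 and 11 falling. The summed level of the homeostatic list went from 148.5 to 223.3 CPM between 3 and 28 months in cerebellum, a ratio of 1.504, and from 268.3 to 375.8 CPM in medulla, a ratio of 1.40. In motor cortex it was 349.3 and 346.5 CPM, and in visual cortex 368.4 and 334.5 CPM. Cd68 in medulla changed 4.78-fold between the same means, and Ctss 2.32-fold. With the mean of the homeostatic list as a covariate, members rose in 56 of 135 pairs, of which 52 had also risen without it, and fell in 1, Ctsc in olfactory bulb. In the same fits 5.04% of all tests were called rising and 4.95% falling. Ctss then rose in 13 regions, Cd68 in 12, Ctsz in 11, Ctsd in 5, Ctsh and Ctsl in 4, Ctsa and Ctsb in 3 and Ctsc in 1. The slope of Cd68 in medulla was 0.0612 beside the list (SE 0.00833, edgeR adjusted p = 6.48e-07) and that of Ctss 0.03105 (SE 0.00415, edgeR adjusted p = 5.04e-07). The part of microglial number in the changes was not tested.

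**Figure D4:**
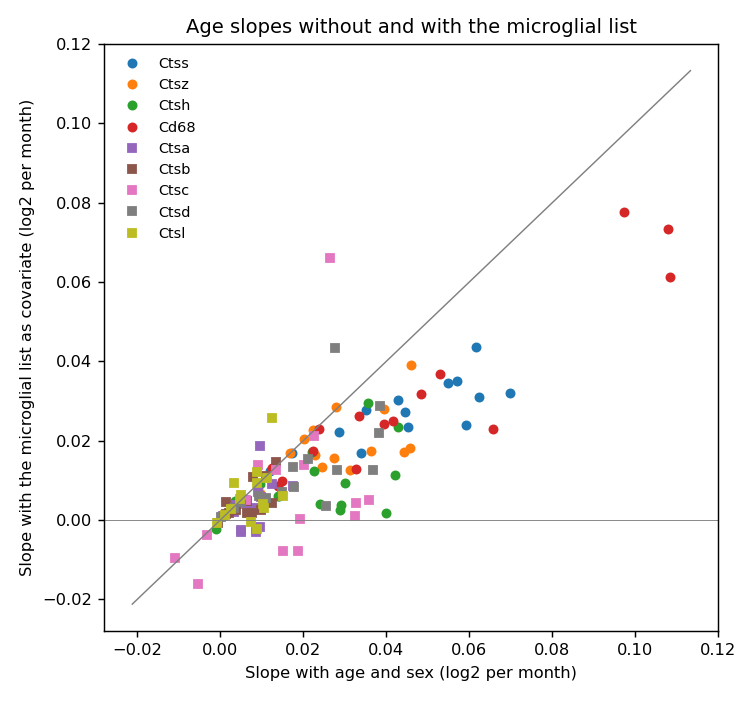
Age slope of each member and region without (horizontal) and with (vertical) the mean of the homeostatic microglia list as a covariate, in log2 per month, with the diagonal for equal slopes. Of 135 points, 108 lie below the diagonal, and Cd68 in medulla moves from 0.108 to 0.0612.

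In corpus callosum, choroid plexus markers moved with several cathepsins from library to library. Within age and sex groups, the mean of 9 epithelial genes correlated with Ctsc at r = 0.88, Ctsl at 0.86, Ctsa at 0.85, Ctsd at 0.84, Ctsz at 0.67, Ctsh at 0.58 and Ctsb at 0.34 over 57 libraries, and with Cd68 at -0.02 and Ctss at -0.27. Other regions showed this too. The epithelial mean correlated with Ctsd at 0.89 in subventricular zone, 0.84 in caudate putamen, 0.72 in thalamus and 0.69 in anterior hippocampus. In choroid plexus the value was 0.64 and in pons 0.43. It lay between -0.21 in cerebellum and 0.18 in entorhinal cortex for the remaining regions. For Ctss it was 0.70 in caudate putamen. The 3-month males with the most epithelial RNA in corpus callosum, at 15490 and 11230 CPM, had 850.8 and 791.5 CPM of Ctsd. The 3-month male with the least, at 6.59 CPM, had 366.6 CPM. In the same order their Ctss was 64.0, 64.4 and 68.2 CPM, their Ctsz 106.1, 105.2 and 79.0 CPM and their Ctsh 34.8, 27.4 and 21.9 CPM. With the epithelial mean as a covariate, the slope of Ctsd in corpus callosum was 0.02745 (SE 0.004855, edgeR adjusted p = 1.67e-05), beside 0.02775 (SE 0.00734, edgeR adjusted p = 0.00442) without it. Ctsa, Ctsc and Ctsl then also passed there, with edgeR adjusted p of 0.01615, 0.0131 and 0.00329. Over all pairs 104 rose with this covariate, where 6.86% of all tests were called rising. Of the 98 pairs that rose without it 97 passed, and Ctsh in anterior hippocampus did not (edgeR adjusted p = 0.0741, beside 0.008505 without it).

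Set against 3 months one age at a time, members were higher in 11 of 135 pairs at 12 months, 29 at 15, 51 at 18, 80 at 21, 63 at 26 and 73 at 28 months. The same calls made up 0.82%, 0.733%, 1.73%, 4%, 2.76% and 3.71% of all tests. These comparisons share the 3-month mice. All 11 calls at 12 months belonged to Ctss, Ctsz and Cd68, in cerebellum, medulla, pons, subventricular zone and thalamus. In thalamus, Ctss was already 0.57 log2 higher at 12 months (SE 0.0636, edgeR adjusted p = 2.87e-08) and 0.97 higher at 21 months. At 21 months Ctss passed in 15 regions, Ctsz in 14 and Cd68 in 12, while Ctsa passed in 4. The call of Ctss in entorhinal cortex (0.76 log2, SE 0.175, edgeR adjusted p = 0.0318) was lost without the library of mouse 52, where the difference was 0.66 (SE 0.174, edgeR adjusted p = 0.179). Ctsc in olfactory bulb was lower by 0.45 log2 at 12 months (SE 0.1075, edgeR adjusted p = 0.006345) and by 0.43 at 26 months (edgeR adjusted p = 0.0438). The 28-month males had 18.6, 20.7 and 19.4 CPM there, beside a 3-month mean of 20.2, and the slope did not pass. Ctsl in motor cortex was lower by 0.12 at 12 months (edgeR adjusted p = 0.0312). The mice of 12, 26 and 28 months are numbered apart from those of 3 months. Age and mouse number therefore cannot be told apart in the calls at those ages. In males alone the counts higher were 1, 8, 21, 36, 44 and 56 in the same order of ages. Those fits hold fewer mice, and their shares over all genes are not given here. At 28 months, leaving out 1 of the 3 mice gave between 54 and 60 pairs.

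**Figure D5:**
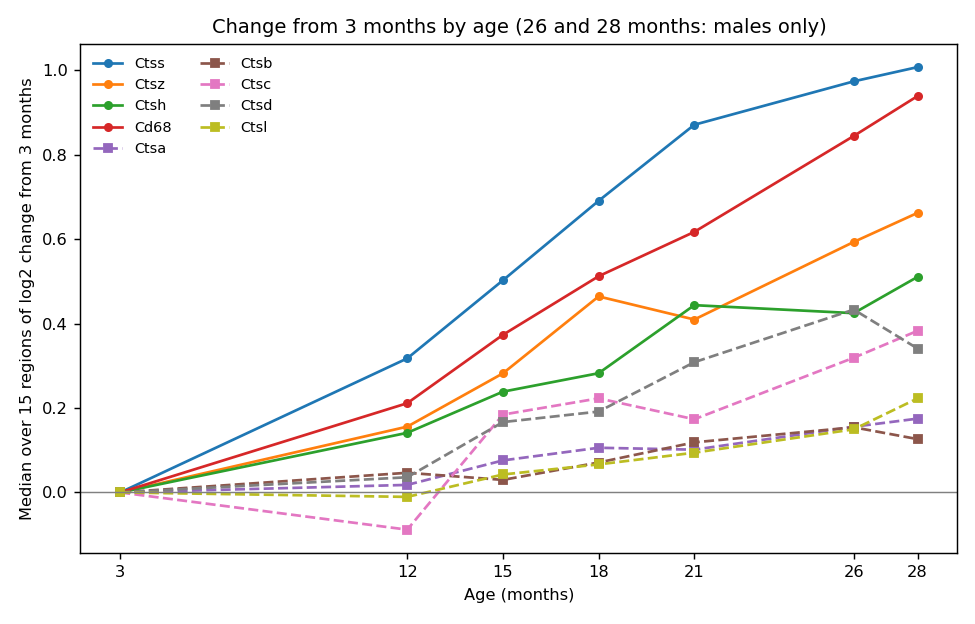
Median over 15 regions of the log2 change from 3 months, by age in months, for each member, with solid lines for Ctss, Ctsz, Ctsh and Cd68 and dashed lines for the other cathepsins. At 28 months the median is 1.01 for Ctss and 0.94 for Cd68, and 0.13 for Ctsb.

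The study's title points to white matter as a site of ageing, so the slope of each member in corpus callosum was set against the mean of the other 14 regions in 1 fit of all libraries. Of all genes, 1.29% had a higher slope there. Ctss did, by 0.0149 log2 per month (SE 0.00436, edgeR adjusted p = 0.0373), and the value was 0.0141 with the mouse as a block (SE 0.00414, edgeR adjusted p = 0.0375). The call was lost without a filter on low counts (adjusted p = 0.0658) and without mouse 17, 57, 58 or 59 (adjusted p = 0.0609, 0.0810, 0.193 and 0.0541). In mice 16 to 56 alone the difference was 0.00754 (edgeR adjusted p = 0.928). None of the other 8 passed. Their differences ran from -0.0069 for Cd68 (SE 0.00488, edgeR adjusted p = 0.596) to 0.0163 for Ctsc (SE 0.00676, edgeR adjusted p = 0.233). Without mouse 17, whose 3-month corpus callosum library carried 11230 CPM of choroid plexus markers, Ctsc, Ctsd and Ctsl passed with differences of 0.0232, 0.0152 and 0.0100 (edgeR adjusted p = 0.0410, 0.0129 and 0.0335). Corpus callosum ranked 5 of 15 for the slope of Ctss and 7 of 15 for that of Cd68. The joint test that all 15 slopes are equal was failed by 18.3% of genes and by all 9 members, with adjusted p between 7.42e-65 for Cd68 and 0.0157 for Ctsa. It was run only without the mouse as a block, so libraries of 1 mouse entered as independent. The entorhinal cortex library of mouse 52 was kept in it.

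Between the sexes at 3 to 21 months, members were lower in males in 15 of 135 pairs and higher in 0. Over all genes 1.64% of tests were called lower and 1.38% higher in males, and medulla alone gave 2068 of the genes called lower. The 15 pairs included 5 regions for Ctsd, 3 for Cd68 and 2 each for Ctsc, Ctss and Ctsz, with 1 for Ctsb. In medulla, Cd68 was 12.8 ± 8.06 CPM in females and 9.24 ± 4.09 CPM in males (SD, n = 24 and 26), a difference of -0.43 log2 (SE 0.0930, edgeR adjusted p = 0.00055). In hypothalamus, Ctsd was 553.3 ± 70.6 and 483.6 ± 39.3 CPM (SD, n = 24 and 25), a difference of -0.19 log2 (SE 0.0260, edgeR adjusted p = 1.67e-06). The sexes carry separate runs of mouse numbers outside 12 and 26 months. Among the 12-month mice alone, whose numbers alternate, 0 pairs passed, with at most 5 mice of each sex. Of the 15 pairs, 14 kept their direction there and 1, Cd68 in cerebellum, was reversed. The share of all genes called in that smaller fit is not given here. Age slopes differed between the sexes in 0 of 135 pairs by edgeR, beside 0.0694% of all tests that passed. An unadjusted p under 0.05 was found in 37 pairs, 34 of them steeper in females. The share of all genes at that unadjusted threshold is not given here. The pairs share mice, so no difference between the sexes is read from this count. The smallest adjusted p was 0.196.

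Other genes of the lysosome were described from fixed lists, and 6.39% of tests over all genes were called rising and 5.07% falling. Of 6 other cathepsins, 7 of 53 tested pairs rose and 0 fell. They included Ctso in 5 regions and Ctsw in 1, while Ctse passed in 0 of the 3 regions where it was tested. Of 4 cathepsin inhibitors, 17 of 59 pairs rose. Cst7, an inhibitor made by activated microglia, rose in 12 of 14 regions with a mean slope of 0.184, Cst3, the abundant secreted cystatin C, in 4 of 15, and Cst6 in 0. Among processing and partner enzymes 12 of 90 pairs rose, with Lgmn, an asparaginyl endopeptidase that processes cathepsins, in 6 regions, Neu1 in 3 and Tpp1 in 0. Of the genes that sort enzymes to the lysosome 20 of 105 pairs rose, with Nagpa and M6pr, a mannose 6-phosphate receptor, in 5 regions each and Gnptab in 0.

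Lysosomal membrane and lipid export genes rose in 48 of 105 pairs, with Laptm5 in 12 regions, Lamp2 in 9 and Laptm4a in 1. Of 13 lysosomal hydrolases, 76 of 195 pairs rose and 3 fell. Naglu, which degrades heparan sulphate, rose in 11 regions, and Gla in 0. Proton pump subunits rose in 2 of 62 pairs, a share of 3.23% beside 6.39% over all genes. They fell in 2, with a median slope of -0.000472. Atp6v0d2 rose in 1 of the 2 regions where it was tested, Atp6v0d1 fell in 1 of 15 and Atp6ap1 passed in 0. Transcription factors of the lysosomal programme rose in 7 of 46 pairs, Tfe3 in 4 regions and Tfeb in 2, while Tfec was tested in 1 region and did not pass. Class II presentation genes rose in 42 of 90 pairs, with H2-DMb1 in 12 regions, Cd74, the invariant chain, in 7 and H2-Ab1 in 5. Of the granule proteases activated by Ctsc, Prtn3 rose in 1 region and Elane in 0 of 3, and Gzma and Gzmb passed the count filter in 0 regions. The rising share of that list was 5.56%, also below the share over all genes.

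Deviations from the mean of each region, sex and age group were compared with those of 11958 genes over all libraries, which share mice and depth. Those of Ctss were most like C1qc (Pearson r = 0.789) and C1qb (0.783), and those of Cd68 most like C1qc (0.501), C1qa (0.4997) and C1qb (0.499). Ctsd was most like Lamp2 (0.802), Cd63 (0.797) and Tcn2 (0.788), and Ctsb like Lgmn (0.728), Lamp1 (0.656) and Cd81 (0.638). For Ctsh the nearest genes were Cd9, Ftl1 and Arpc1b (0.660 to 0.6455), for Ctsz Anxa5, Cd9 and Ftl1 (0.7045 to 0.679), for Ctsl Cd63, Fxyd1 and Slc25a39 (0.785 to 0.704) and for Ctsc Cd63, Cpq and Ccnd3 (0.691 to 0.671). Ctsa was nearest to Pltp (0.759), whose exons overlap 495 of the 4715 exon bases of Ctsa on the opposite strand, and to Ctsd (0.754) and Cnn3 (0.743). Among the 36 pairs of members, the correlation was highest for Ctsa with Ctsd, at 0.754, and lowest for Ctsl with Cd68, at 0.152. Deviations within groups also moved with choroid plexus markers in some regions. In subventricular zone the correlation was 0.89 for Ctsd, 0.88 for Ctsl, 0.85 for Ctsc and 0.79 for Ctsa. In cerebellum it was -0.21, -0.17, 0.15 and -0.18 in the same order. The part of choroid plexus RNA in these likenesses was not tested.

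On GRCm38 the members lie on 7 chromosomes. Ctsa and Ctsz are both on chromosome 2, at 164832873 to 164841032 and 174427493 to 174439039, and Ctsc and Ctsd both on chromosome 7, at 88278085 to 88310888 and 142375911 to 142388038. Ctss is on chromosome 3, 95526786 to 95556403, Ctsh on chromosome 9, 90054152 to 90076089, Cd68 on chromosome 11, 69664213 to 69666153, Ctsl on chromosome 13, 64359337 to 64370890, and Ctsb on chromosome 14, 63122462 to 63145923. The counts cover whole genes without strand, so reads of overlapping genes cannot be separated. The exons of Ctsb share 774 bases with Fdft1 on the opposite strand, and those of Ctsd share 808 bases with Gm49369 on the same strand, which has no row in the table. The largest overlap was that of Ctsl, with 1742 of 6489 exon bases shared with Gm47123 on the opposite strand. Ctsl also shares 395 bases with the pseudogene Gm49230 on the same strand. Neither Gm47123 nor Gm49230 has a row.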

How the data were processed

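Brain tissue of 59 mice was homogenised, and libraries were made by Smart-Seq2 and Nextera XT, per the labels' protocols, a preparation that does not mark strand. The authors deposited 1 table of read counts per gene symbol. The submitters' processing notes name Trim Galore 0.3.7, STAR 2.5.3a, DESeq2 and GRCm38; the counting program and annotation are not given in the sources used here. Region, sex, age and mouse came from the labels. The members and gene lists were chosen with earlier results of these data known.

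Levels are CPM on the library total. Each region was fitted in R 4.3.3 with edgeR 4.0.16 (quasi-likelihood, TMM factors, filterByExpr on sex and age groups), 2-sided, at an adjusted p of 0.05 over all genes of the region. The code was tested on simulated data. The variance shares and likeness used log2 CPM with a prior count of 2, and likeness was limited to genes that averaged 5 CPM or more. Orders of regions call neighbours apart where their means differ by more than the larger SD. From each pathway list, the 2 genes that passed in most regions and the 1 that passed in fewest are named, except for an item that is not reported here. Alternatives were RLE factors, no filter, DESeq2 1.42.0, males alone, mice 16 to 56 alone, covariates, left-out mice (1 of each sex and age group and all of 28 months), the entorhinal cortex without mouse 52 and, added after seeing the data, libraries of at least 1e+06 reads. Libraries of 1 mouse deviated together (median r over genes of 0.036 in 5687 library pairs, against -0.000506 for different mice and regions). The labels give the mouse, so the corpus callosum contrast of the joint fit was also made with the mouse as a block. The joint test of equal slopes was not. Coordinates come from GENCODE on GRCm38 and promoters from RefSeq on GRCm38.p6.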

Additional observations from a re-analysis of the deposited data

Results flagged for a closer look

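Of 63 groups of 4 to 10 libraries tested for 1 library far from the rest, 8 had one, where chance gives about 5 in 100. Mouse 25, a 3-month male, was the high library for Ctsa in motor cortex (123.4 CPM, next 114.9) and in pons for Ctsh (44.95 CPM, next 32.3) and Ctss (92.93 CPM, next 77.0). Ctsb in pons at 3 months was 1183 CPM in mouse 37, next 1074. Ctss in olfactory bulb at 3 months was 88.8 CPM in mouse 33, next 51.0, and in posterior hippocampus at 21 months 105 CPM in mouse 52, next 87.0. Cd68 in subventricular zone at 21 months was 23.56 CPM in mouse 44, next 18.1. Cd68 in thalamus at 3 months was 1.893 CPM in mouse 17, next 4.25, in a library of 528123 reads.

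Slopes that differed between regions in the joint test of 14 differences had adjusted p-values by edgeR of 0.0157 for Ctsa, 2.42e-08 for Ctsb, 0.00023 for Ctsc, 2.29e-18 for Ctsd, 2.66e-10 for Ctsh, 0.00857 for Ctsl, 2.72e-31 for Ctss, 6.37e-13 for Ctsz and 7.42e-65 for Cd68. That joint test was run only without the mouse as a block. The slope of Ctss in corpus callosum stood 0.01488 log2 per month above the mean of the other 14 regions.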

How the results depend on the processing

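The 98 rising pairs came to 98 with RLE factors, 96 with no filter beyond 1 read, 97 with DESeq2, 98 without libraries under 1e+06 reads, 73 in males alone and 77 in mice 16 to 56 alone. The fits of males alone and of mice 16 to 56 alone hold fewer mice. Shares over all genes are not given for these alternatives, so fewer calls are not read as a change in the members. Leaving out 1 mouse gave 93 to 98. Beside the microglial list 56 pairs rose and 1 fell. The regions in which a gene rose then numbered 3 for Ctsa, 3 for Ctsb, 1 for Ctsc, 5 for Ctsd, 4 for Ctsh and 4 for Ctsl, and among the pairs that had risen, 5 slopes turned below 0 without passing: Ctsa in caudate putamen (-0.00188), cerebellum (-0.00247) and medulla (-0.003035) and Ctsl in hypothalamus (-0.000394) and medulla (-0.00237). In males alone the regions were 2 for Ctsc, 6 for Ctsh and 4 for Ctsl, and in mice 16 to 56 alone 5 for Ctsa and 4 for Ctsl.

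Against 3 months, males alone gave 1 pair higher at 12 months, 8 at 15, 21 at 18 and 36 at 21 months. Lower pairs numbered 1 at 12 months and 2 at 28 months in males alone, 0 at 26 months with no filter, 1 to 2 at 12 months and 0 to 1 at 26 months when 1 mouse was left out. Among 12-month mice alone 0 pairs were called lower in males. Of the 15 pairs called at 3 to 21 months, 14 kept their direction, and Cd68 in cerebellum was 0.0723 log2 higher in males.

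For the corpus callosum contrast 4 mice were left out in turn, to keep the refits short. Ctss was 0.0143 with no filter and 0.00754 in mice 16 to 56 alone (edgeR adjusted p = 0.0658 and 0.928), Ctsz -0.00547 in mice 16 to 56 alone and Cd68 0.000297 in males alone. Without 1 mouse, Ctss ran from 0.01195 to 0.0145, Ctsc from 0.0114 to 0.0232, Ctsd from 0.00918 to 0.0152, Ctsl from 0.00676 to 0.0100 and Ctsz from -0.000853 to 0.00218, below 0 without mouse 57 (-0.000393) or 58. The replicate block on the mouse changed no call of this contrast, with Ctss at 0.01405.

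On totals scaled by TMM, 3-month means were 118 CPM for Ctsa and 115.2 for Ctsl in motor cortex and 637.9 for Ctsb in olfactory bulb. The 28-month means were 132.3 for Ctsa, 1015 for Ctsb and 119.2 for Ctsl in motor cortex, 664.8 for Ctsb and 54.5 for Ctss in olfactory bulb, 49.5 for Ctsh and 17.7 for Cd68 in subventricular zone, 191.6 for Ctss in caudate putamen and 8.88 for Cd68 in hypothalamus. At 28 months 2 or 3 mice stand behind each mean, and Cd68 and Ctsc rest on the fewest reads.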
